A study of Mus musculus with 4 samples.

Results

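Foxp3 and the 5 Ikaros family genes Ikzf1 to Ikzf5 were compared between CD4 T cells with and without expression of the Gpr15 locus, sorted from lamina propria of the large intestine of mice. The 6 genes were chosen by symbol, and they are 6 of 18193 genes that had at least 1 probe set with a single gene symbol. All 6 were among the 12241 genes tested, and together they had 14 such probe sets. GFP-positive CD4 T cells were set against GFP-negative CD4 T cells, both sorted after collagenase digestion from mice of mixed 129/B6 strain background. All mice were heterozygous for green fluorescent protein (GFP) knocked into the Gpr15 locus, so GFP stood for Gpr15, a chemoattractant receptor that helps T cells home to the colon, and both groups carried the knock-in. Each group had 2 Affymetrix arrays, numbered replicate 1 and replicate 2, and the labels give neither age, sex nor the number of mice per array. Nor do they say whether mice were pooled, and p-values cover no more than the spread among these 4 arrays. The fluorescence marks the Gpr15 locus and not Foxp3, so the sort did not select on any of the 6 genes directly.

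Foxp3 is the forkhead factor that defines regulatory T cells, which restrain immune responses and are abundant in the colon. Ikaros family proteins are zinc finger transcription factors that bind DNA carrying the letters GGGAA, pair with each other through fingers at their C-terminal end and bring chromatin remodelling complexes such as NuRD to their targets. Ikzf1 encodes Ikaros, which is needed for lymphocyte development, Ikzf2 encodes Helios and Ikzf4 encodes Eos, both of which act with Foxp3 in regulatory T cells. Ikzf3 encodes Aiolos, known from B cells and from helper T cells that make interleukin-17, and Ikzf5 encodes Pegasus, whose DNA binding differs from that of the other members.

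In the RefSeq annotation of GRCm38.p6 Foxp3 lies on chromosome X from 7579676 to 7595243, Ikzf1 on chromosome 11 from 11684962 to 11772930 and Ikzf2 on chromosome 1 from 69531207 to 69687351. Ikzf3 lies on chromosome 11 from 98464610 to 98546031, Ikzf4 on chromosome 10 from 128630839 to 128669671 and Ikzf5 on chromosome 7 from 131388649 to 131410518. Promoter windows of 300 bases, 250 before and 50 after an annotated start, were at hand from RefSeq for 3 of the 6 genes (Foxp3 and Ikzf1 with 2 starts each, Ikzf5 with 1). The windows shown belong to the gene with the most positive difference (Foxp3), the gene that was lower (Ikzf1, both starts) and Ikzf5, 5′ to 3′ on the gene's strand, and capitals mark GGGAA or its reverse complement TTCCC.
Foxp3, first start, chrX:7579426-7579725, plus strand: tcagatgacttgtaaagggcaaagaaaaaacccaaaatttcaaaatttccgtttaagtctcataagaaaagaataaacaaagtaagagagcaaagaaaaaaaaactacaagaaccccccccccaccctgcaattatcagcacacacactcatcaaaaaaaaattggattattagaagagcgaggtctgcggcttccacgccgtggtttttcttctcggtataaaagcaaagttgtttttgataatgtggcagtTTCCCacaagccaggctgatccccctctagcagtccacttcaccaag
Ikzf1, first start, chr11:11685675-11685974, plus strand: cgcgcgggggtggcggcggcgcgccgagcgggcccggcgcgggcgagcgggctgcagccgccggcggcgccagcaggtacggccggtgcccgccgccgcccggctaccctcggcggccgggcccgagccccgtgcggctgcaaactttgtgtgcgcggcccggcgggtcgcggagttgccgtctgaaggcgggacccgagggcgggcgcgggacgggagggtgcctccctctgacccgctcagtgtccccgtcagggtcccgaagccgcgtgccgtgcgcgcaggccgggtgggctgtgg
Ikzf1, second start, chr11:11689927-11690226, plus strand: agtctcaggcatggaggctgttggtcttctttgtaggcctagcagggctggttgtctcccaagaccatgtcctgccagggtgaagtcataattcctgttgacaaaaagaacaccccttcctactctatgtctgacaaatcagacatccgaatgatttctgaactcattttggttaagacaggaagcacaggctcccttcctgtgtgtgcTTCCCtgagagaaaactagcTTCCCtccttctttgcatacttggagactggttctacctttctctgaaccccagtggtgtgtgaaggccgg
Ikzf5, chr7:131410429-131410728, minus strand: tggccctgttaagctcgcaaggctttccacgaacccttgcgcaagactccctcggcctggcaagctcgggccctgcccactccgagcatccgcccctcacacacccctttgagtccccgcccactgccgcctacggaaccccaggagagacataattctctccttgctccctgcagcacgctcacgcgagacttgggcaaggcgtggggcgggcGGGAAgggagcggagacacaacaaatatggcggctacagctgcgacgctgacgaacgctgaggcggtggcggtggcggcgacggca

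On either strand, GGGAA occurred 1 time in the first Foxp3 window, 2 times in the second Ikzf1 window and 1 time in the Ikzf5 window, and 0 times in the first Ikzf1 window and the second Foxp3 window. It occurs in 62.7% of 32841 mouse promoter windows of this length, so a match is common. The forkhead core TGTTTAC, searched on both strands, was in 0 of the 5 windows and is in 3.65% of all windows. The windows differed in base composition, with 40.7% G and C in the first Foxp3 window, 47.7% in the second, 81.3% and 49% in the first and second Ikzf1 windows and 65.7% in the Ikzf5 window, against a median of 52.7% over all windows. A match describes letters only.

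Of the arrays as a whole, the trimmed mean signal (without the top and bottom 2% of probe sets) was 150.0 on all 4, while the medians were 46.0 and 45.2 on the GFP-positive arrays, against 37.0 and 36.1 on the GFP-negative arrays. Gpr15 followed the sort, with signals of 619 and 729 on the GFP-positive arrays, against 146 and 162 on the GFP-negative arrays. Replicate 1 arrays had high Xist and low Eif2s3y, a Y-linked gene, and replicate 2 arrays the reverse, so the 2 arrays of each group differed in these sex-linked genes and did not come from the same mice. Both numbers held an array per group. Differences within each number are therefore given beside the pooled ones.

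Differences were tested with limma on log2(signal + 16), with Benjamini-Hochberg adjustment over all 12241 genes, and understate the change of dim genes. No gene passed an adjusted p of 0.05 (0 of 12241, or 0%), the smallest adjusted p being 0.0528, while 1768 genes (14.4%) had an unadjusted p under 0.05. No member passed either, so the members are given as measured values. Over the members, 4 were higher and 1 was lower at an unadjusted p under 0.05, where the shares of all genes were 10.2% and 4.26%. A positive difference was found for 5 of 6 members and for 57.9% of all genes. The 2 GFP-positive arrays lay on one side of the 2 GFP-negative arrays for 6 of 6 members, where 47.4% of all genes had such groups (28.9% higher and 18.5% lower in GFP-positive cells). With 2 arrays against 2, an exact permutation test of 1 gene cannot go below a two-sided p of 0.333.

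Foxp3, the regulatory T cell factor, was higher in GFP-positive cells. Its signal was 441 and 472 on the GFP-positive arrays, against 76.6 and 72.2 on the GFP-negative arrays. The groups were far apart and the arrays of each group close together, with means of 456 ± 22.1 in GFP-positive cells and 74.4 ± 3.10 in GFP-negative cells (SD, n = 2 each), a ratio of 6.13. The log2 difference was 2.38 (95% interval 1.87 to 2.90), at a limma adjusted p of 0.0738. Replicate 1 alone gave 2.30 and replicate 2 alone 2.47. By the size of the positive difference Foxp3 ranked 12 of 12241 genes, and 7 by p. In RNA of a sorted population, more cells of a type and more RNA per cell cannot be told apart. Foxp3 had 1 probe set, so no second probe set bears on it.

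**Figure D1:**
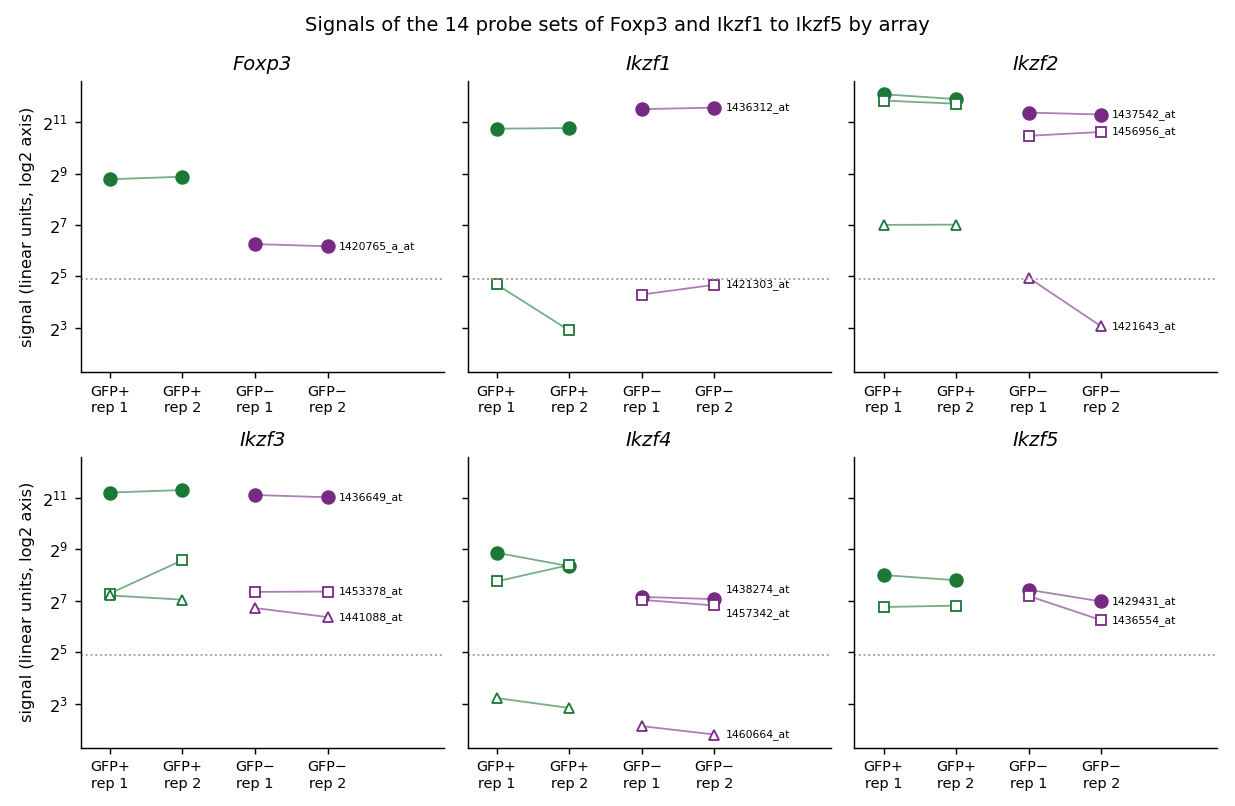
Signal of each of the 14 probe sets of the 6 genes on each array, in linear units on a log2 axis, with GFP-positive arrays in green at the left and GFP-negative arrays in purple at the right of each panel. Filled circles are the probe set used for the gene and open symbols the others, lines join the 2 arrays of a group, and the dotted line is the limit of 29.53 below which genes were left out as dim. Foxp3, Ikzf4 and the 3 probe sets of Ikzf2 are higher on both GFP-positive arrays, and the bright Ikzf1 probe set is lower.

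Ikzf4 is the gene of Eos, which binds Foxp3 and takes part in silencing its target genes. By the probe sets used, Ikzf4 was the next highest of the members. Its signal was 467 and 325 on the GFP-positive arrays, against 142 and 134 on the GFP-negative arrays. The GFP-positive arrays differed from each other, and both were above the GFP-negative ones, with means of 396 ± 100 in GFP-positive cells and 138 ± 5.75 in GFP-negative cells (SD, n = 2 each). The log2 difference was 1.40 (95% interval 0.77 to 2.03, limma adjusted p = 0.162), rank 115 of 12241. Replicate 1 alone gave 1.61 and replicate 2 alone 1.19. The probe set 1457342_at had signals of 216 and 336 in GFP-positive cells, against 131 and 113 in GFP-negative cells, a difference of 1.05 (0.36 to 1.75), where intervals of further probe sets come from a fit over all single-symbol probe sets. Here GFP-positive replicate 2 was the higher one, while on the first probe set it was replicate 1. The third probe set, 1460664_at, was below the dim limit, at 9.27 and 7.10 in GFP-positive cells and 4.35 and 3.47 in GFP-negative cells. With the mean of all its probe sets Ikzf4 had a difference of 0.91.

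Ikzf2, the gene of Helios, a factor of regulatory T cells, in particular those formed in the thymus, was higher with all 3 of its probe sets, by unequal amounts. The brightest, 1437542_at, had signals of 4364 and 3833 on the GFP-positive arrays, against 2661 and 2526 on the GFP-negative arrays. The log2 difference was 0.65 (95% interval 0.13 to 1.18, limma adjusted p = 0.278). Replicate 1 alone gave 0.71 and replicate 2 alone 0.60. The groups did not overlap on any of the 3 probe sets. Probe set 1456956_at had 3682 and 3381 in GFP-positive cells, against 1423 and 1578 in GFP-negative cells, a difference of 1.23 (0.69 to 1.77). Probe set 1421643_at had 129 and 129 in GFP-positive cells, against 30.9 and 8.31 in GFP-negative cells, a difference of 2.10 (1.24 to 2.97). The GFP-negative mean of this probe set is under the dim limit of 29.53, so the size of that difference is uncertain, and it enters the mean of the probe sets, 1.33. Of both bright probe sets, the one chosen for its high mean gave the lower difference. Under median scaling, which divides each array by its median, the difference of 1437542_at was 0.34.

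Ikzf1, the gene of Ikaros, was the member that was lower in GFP-positive cells. The signal of 1436312_at was 1723 and 1755 on the GFP-positive arrays, against 2920 and 3044 on the GFP-negative arrays. Replicates were close in both groups, with means of 1739 ± 23.1 in GFP-positive cells and 2982 ± 88.1 in GFP-negative cells (SD, n = 2 each), a ratio of 0.583. The log2 difference was -0.77 (95% interval -1.28 to -0.26, limma adjusted p = 0.239), with -0.76 and -0.79 within replicates 1 and 2. A lower difference than that of Ikzf1 was found for 2.93% of tested genes. Its other probe set, 1421303_at, was below the dim limit, with overlapping groups at 25.8 and 7.45 in GFP-positive cells and 19.6 and 25.6 in GFP-negative cells.

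Ikzf3, the gene of Aiolos, had the difference nearest to 0 among the members. The signal of 1436649_at was 2371 and 2541 on the GFP-positive arrays, against 2222 and 2088 on the GFP-negative arrays. The groups did not overlap, but the log2 difference of 0.19 had an interval across 0 (-0.33 to 0.70, limma adjusted p = 0.725), with 0.09 and 0.28 within replicates 1 and 2. Under median scaling the difference was -0.13. Probe set 1441088_at had 148 and 132 in GFP-positive cells, against 105 and 82.4 in GFP-negative cells, a difference of 0.51 (-0.06 to 1.09). Probe set 1453378_at stood at 156 and 382 in GFP-positive cells, against 163 and 164 in GFP-negative cells. On that probe set 1 array, GFP-positive replicate 2, set the whole difference of 0.54 (-0.49 to 1.57), with -0.06 within replicate 1 and 1.14 within replicate 2.

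Ikzf5, the gene of Pegasus, was higher on its brighter probe set and not on the other. The signal of 1429431_at was 256 and 223 on the GFP-positive arrays, against 172 and 126 on the GFP-negative arrays. The log2 difference was 0.64 (95% interval 0.03 to 1.25, limma adjusted p = 0.330), with 0.53 and 0.75 within replicates 1 and 2. Probe set 1436554_at had 108 and 112 in GFP-positive cells, against 146 and 75.8 in GFP-negative cells, so the groups overlapped and the difference was 0.05 (-0.74 to 0.84). With the mean of both probe sets the difference was 0.35, and under median scaling 0.35 as well.

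**Figure D2:**
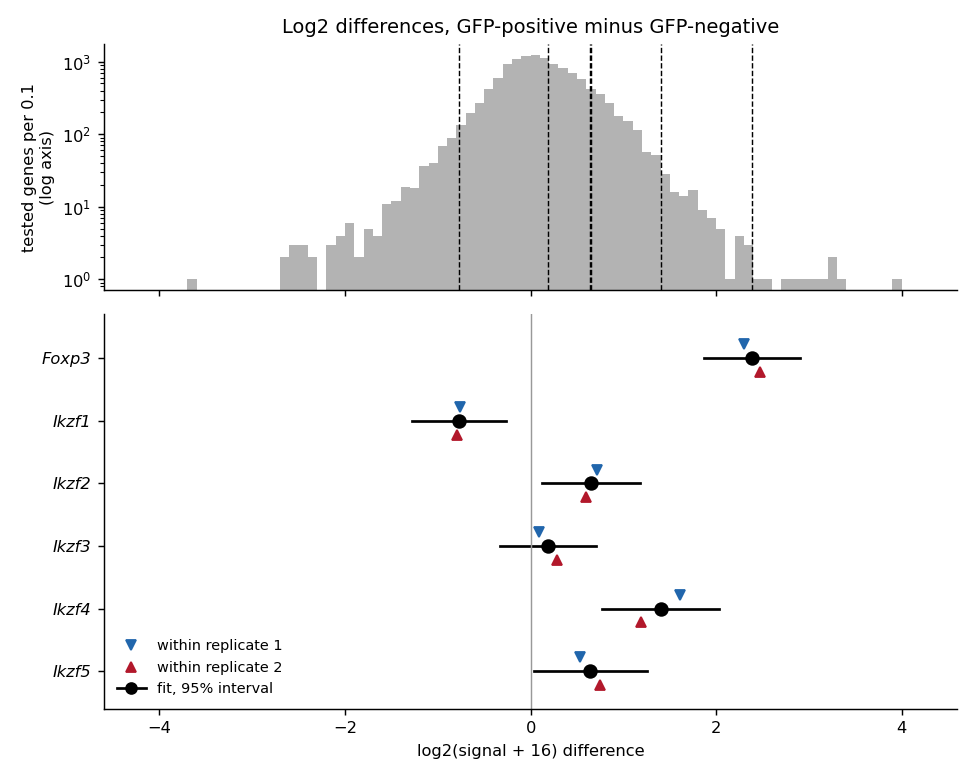
Log2 differences of GFP-positive minus GFP-negative cells. The top panel counts all 12241 tested genes in steps of 0.1 on a log axis, with dashed lines at the 6 members, and the lower panel gives each member's difference with its 95% interval (black), and the differences within replicate 1 (blue) and replicate 2 (red). Foxp3 at 2.38 lies in the upper tail, Ikzf4 at 1.40 follows, and Ikzf1 at -0.77 is on the other side of 0.

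The 5 Ikaros family genes therefore did not share 1 pattern. Ikzf2, Ikzf4 and Ikzf5 had positive differences and Ikzf1 a negative one under the settings used and under all 17 alternatives tried, while Ikzf3 changed sign under 1 of them, median scaling. That scaling put the median difference over all genes at -0.20, against 0.08 as reported. Of the alternatives, only the normalizations and the probe set rules could change the sign of a member. In size, 2 of 6 members, Foxp3 and Ikzf4, differed by at least 1 on the log2 scale with groups that did not overlap, where 5.18% of all genes did so. Both were higher, as were 3.82% of all genes by this measure, and 0 members were lower, against 1.36%. This count and the order of Ikzf4 and Ikzf2 depend on the probe set used. With the mean of the probe sets of a gene, Ikzf2 was at 1.33 and Ikzf4 at 0.91. The other Ikzf2 probe sets gave 1.23 and 2.10, with groups that did not overlap. The order of the differences from Foxp3 down to Ikzf4, Ikzf2, Ikzf5, Ikzf3 and Ikzf1 has overlapping 95% intervals at every pair of neighbours, and differences between members were not tested. Over all 14 probe sets, 12 had positive and 2 negative differences, and the negative ones were both of Ikzf1.

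**Figure D3:**
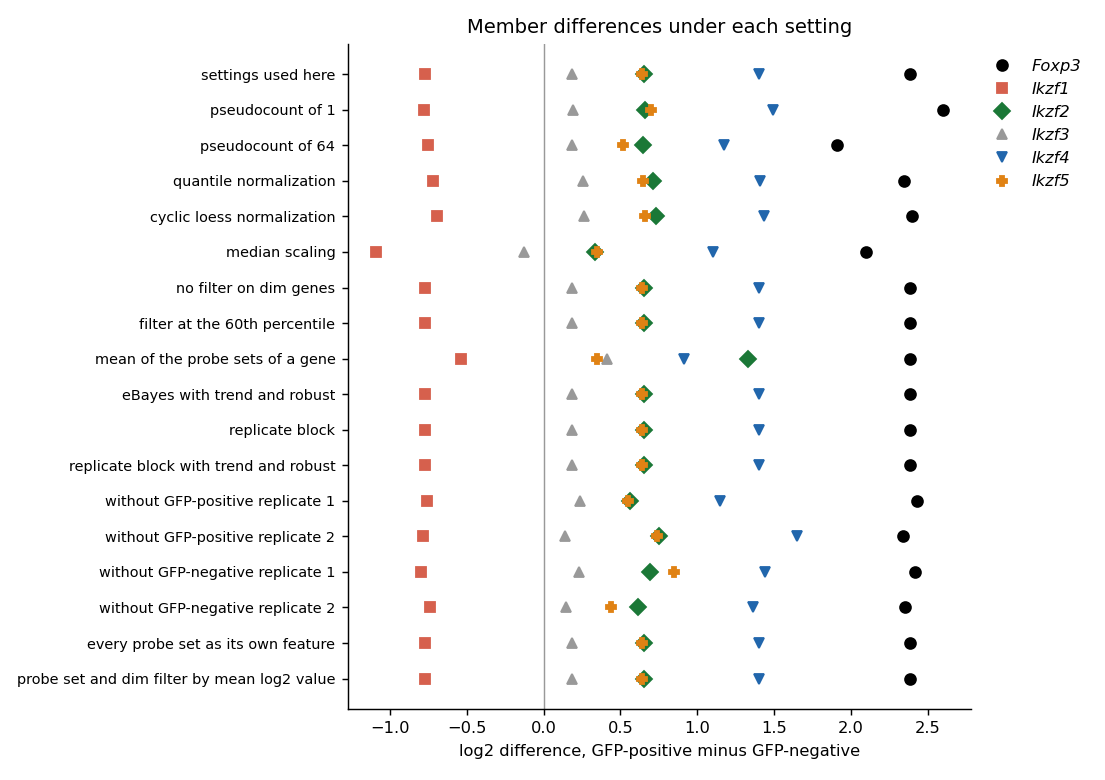
Log2 difference of each member, GFP-positive minus GFP-negative, under the settings used (top line) and 17 alternatives. Foxp3 stays between 1.91 and 2.60, Ikzf4 between 0.91 and 1.65 and Ikzf1 between -1.09 and -0.54, and Ikzf3 crosses 0 under median scaling.

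The genes whose log2 profile over the 4 arrays was most like that of Foxp3, by Euclidean distance after centring each gene, were Tmem158 (distance 0.17), the organic anion transporter gene Slco2b1 (0.20), the cytotoxic granule protease genes Gzma (0.28) and Gzmb (0.28) and the chemokine receptor gene Ccr1 (0.31). Their differences ran from 2.24 for Slco2b1 to 2.48 for Gzma. For Ikzf4 the nearest were Rin2 (0.09), Acod1 (0.10) and Prdm1 (0.13), the last encoding Blimp-1, a factor of effector lymphocytes. For Ikzf1 they were Smim4 (0.04), Znrf1 (0.06) and the cell cycle kinase gene Cdc7 (0.09), with differences from -0.82 to -0.71. Ikzf2 was nearest to Vcpkmt, Tmem191c and Lpcat1 at distances up to 0.03, Ikzf3 to Togaram1, Gpr173 and Sstr2 at 0.04, and Ikzf5 to 1700017B05Rik, A230006K03Rik and Pck2 at up to 0.05. Among the members themselves Ikzf2 and Ikzf5 were closest (0.24) and Foxp3 and Ikzf1 farthest apart (3.16). A distance over 4 arrays of 2 groups depends largely on the size of the group difference.

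Genes known to be activated by Foxp3 were mostly higher in GFP-positive cells. Of 14 listed, 12 were tested (Lrrc32 and Tigit were not analysed here), 10 had positive and 2 negative differences, and 0 passed the adjusted test. The median difference was 0.41, against 0.08 over all tested genes, with 0.44 and 0.57 within replicates 1 and 2. Under median scaling it was 0.10, against -0.20 for all genes. Groups did not overlap with GFP-positive arrays higher for 9 of 12, where 28.9% of all genes did so, and with GFP-positive arrays lower for 1, where 18.5% did. The gene lists here and below were chosen with earlier results of these data known. Their shares are therefore described, and no list was tested as a set.

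Il10, the suppressive cytokine gene, had signals of 4131 and 3825 in GFP-positive cells, against 1379 and 1198 in GFP-negative cells, a log2 difference of 1.62 (1.08 to 2.15). Il2ra, the gene of the interleukin-2 receptor alpha chain, had 950 and 919 in GFP-positive cells, against 445 and 336 in GFP-negative cells, a difference of 1.24 (0.65 to 1.82). These were the 2 listed genes of at least 2-fold difference. The other tested members lay between -0.96 for Izumo1r, the gene of folate receptor 4, and 0.86 for Tnfrsf18, the gene of the costimulatory receptor GITR.

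Genes known to be repressed by Foxp3 were mostly lower. All 11 listed were tested, 10 had negative differences and 1 a positive one, and 0 passed the adjusted test. The median was -1.18, with -1.67 and -0.84 within replicates 1 and 2, and groups did not overlap with GFP-positive arrays lower for 9 of 11, where 18.5% of all genes did so. Il21, the gene of a helper T cell cytokine, had signals of 66.8 and 10.7 in GFP-positive cells, against 434 and 788 in GFP-negative cells, a difference of -3.68 (-5.14 to -2.21). Replicate 1 alone gave -2.44 and replicate 2 alone -4.91, and the dimmer Il21 probe set gave -1.76.

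Pde3b, the gene of a cyclic nucleotide phosphodiesterase, had 282 and 543 in GFP-positive cells, against 1818 and 1491 in GFP-negative cells, a difference of -2.03 (-2.90 to -1.15). Csf2 and Il2, the genes of a myeloid growth factor and of the T cell growth factor, had differences of -1.90 (-2.82 to -0.98) and -1.61 (-2.46 to -0.75). For both, GFP-negative replicate 1 was the highest array, at 633 for Csf2 and 780 for Il2. Tnf (0.02) and Zap70 (-0.02) had the differences nearest to 0.

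Genes known as targets of Ikaros family proteins went both ways. Of 11 tested, 5 had positive and 6 negative differences and 0 passed, with a median of -0.75 that was -0.47 without GFP-negative replicate 2. The list shares Il2, Ifng and Il17a with the genes repressed by Foxp3 and Il10 with those activated by it. Bcl2, the survival gene, had signals of 138 and 111 in GFP-positive cells, against 465 and 339 in GFP-negative cells, a difference of -1.57 (-2.20 to -0.93), and its other 4 probe sets ran from -2.28 to -0.97.

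Tbx21, the gene of the Th1 factor T-bet, and Ifng, the cytokine gene it controls, had differences of -1.42 (-2.33 to -0.51) and -1.27 (-2.11 to -0.42). Tbx21 stood at 47.0 and 35.0 in GFP-positive cells, against 195 and 92.7 in GFP-negative cells, with the highest array being GFP-negative replicate 1. Igll1, a surrogate light chain gene of early B cells, had 482 and 286 in GFP-positive cells, against 223 and 138 in GFP-negative cells, a difference of 1.02 (0.13 to 1.90).

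Genes of the machinery around the 6 factors had list medians from -0.18 to 0.06. Among 23 tested partners and upstream regulators of Foxp3, 12 had positive and 11 negative differences, with a median of 0.00. This median was negative under quantile (-0.03), cyclic loess (-0.04) and median scaling (-0.25). It was also negative with no filter on dim genes (-0.01) and without GFP-positive replicate 2 (-0.05). Bach2, a repressor that keeps T cells from effector differentiation, was the member of at least 2-fold difference, at 252 and 238 in GFP-positive cells, against 816 and 597 in GFP-negative cells (log2 difference -1.45, interval -2.06 to -0.85). Satb1, a genome organiser that Foxp3 represses, had 2538 and 3233 in GFP-positive cells, against 4236 and 5085 in GFP-negative cells, a difference of -0.69 (-1.29 to -0.09) that reached -1.82 on another probe set. Foxp1, a forkhead factor related to Foxp3, had a difference of -0.13 (-0.69 to 0.43). Satb1 is also on the list of genes repressed by Foxp3.

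Among 12 tested genes of NuRD, 9 had negative and 3 positive differences, with a median of -0.18 that was -0.36 without GFP-negative replicate 1 and -0.49 under median scaling. Groups did not overlap with GFP-positive arrays lower for 8 of 12, where 18.5% of all genes did so. None differed by 2-fold, and the brightest, Rbbp4 and Gatad2a, had differences of -0.13 and -0.21. The 9 other partners of Ikaros proteins had a median of -0.13 that was -0.04 without GFP-positive replicate 1 and -0.45 under median scaling, with 6 negative and 3 positive differences and Bcl6 at -0.14. The genes of the cereblon ligase, which takes human Ikaros and Aiolos for breakdown under thalidomide analogs, had a median of 0.02 over 5. This median was -0.29 under median scaling, -0.03 with the mean of probe sets and -0.02 without GFP-negative replicate 1. Crbn was at 0.24 (-0.37 to 0.84) and Cul4b at 0.02.

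Of the Foxp genes other than Foxp3, Foxp2 had a difference of 1.22 (0.11 to 2.32), at 98.5 and 50.1 in GFP-positive cells, against 37.7 and 10.1 in GFP-negative cells. Its groups did not overlap. Of its other 5 probe sets, those above the dim limit gave 1.04, 0.50 and 0.49. Those below the limit gave 0.26, at a mean signal of 4.08, and -0.64, at 24.98. Foxp4 had a difference of 0.06 (-0.67 to 0.79). The median of the 3 Foxp genes, 0.06, is that of Foxp4 and turned negative under quantile, cyclic loess and median scaling (-0.06, -0.05 and -0.20). It was also negative with the filter at the 60th percentile (-0.04, over 2 genes) and with the mean of probe sets (-0.004). It was -0.21 without GFP-positive replicate 2 and 0.41 without GFP-positive replicate 1.

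**Figure D4:**
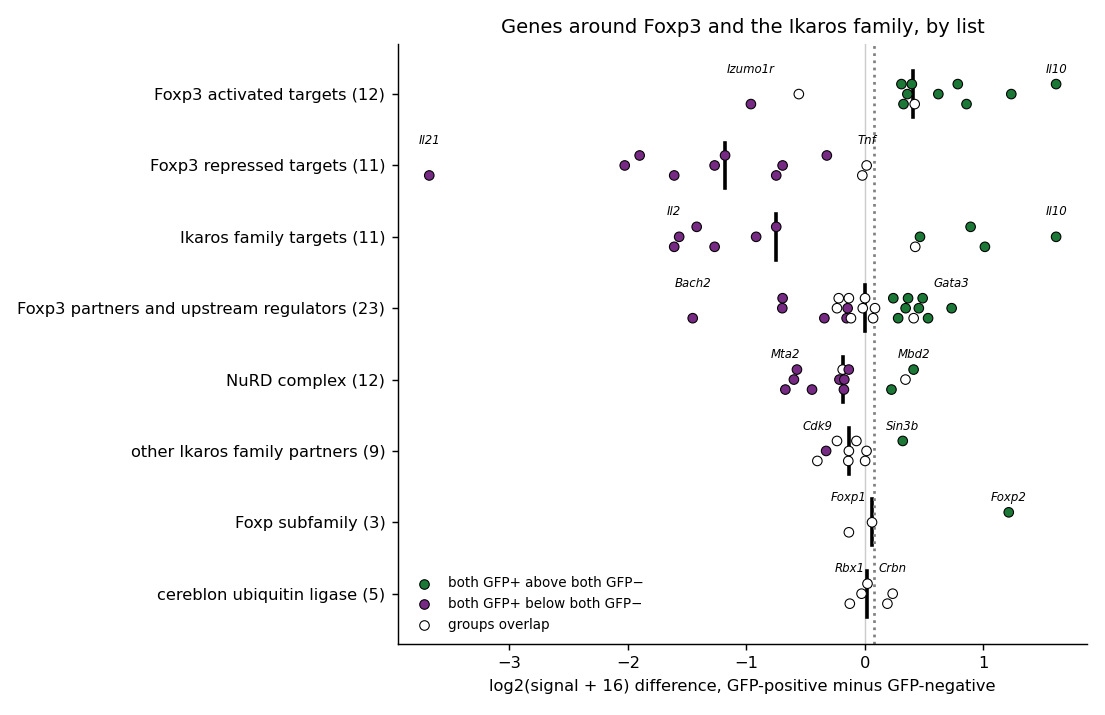
Log2 differences, GFP-positive minus GFP-negative, of the tested genes of each list around Foxp3 and the Ikaros family, with the number tested in brackets. Green and purple points are genes whose GFP-positive arrays both lie above or below both GFP-negative arrays, white points overlap, thick bars are list medians and the dotted line is the median of all tested genes, 0.08. Genes repressed by Foxp3 lie mostly left, at a median of -1.18, and genes activated by it mostly right, at 0.41.

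For the labelled cell type, all 11 CD4 T cell genes on the arrays were above the dim limit on every array. Their summed signal was 17435 and 15687 on the GFP-positive arrays, against 18261 and 17778 on the GFP-negative arrays. Cd4 itself had signals of 540 and 533 in GFP-positive cells, against 501 and 587 in GFP-negative cells, and the groups overlapped. Cd3e, the gene of a T cell receptor signalling chain, and Cd28, the gene of a costimulatory receptor, had differences of -0.16 (-0.68 to 0.36) and -0.09 (-0.61 to 0.42). Of the 11 genes 9 had negative differences and 0 passed the adjusted test. The most negative was Lat, the gene of a T cell receptor adaptor, at 355 and 397 in GFP-positive cells, against 641 and 786 in GFP-negative cells (difference -0.89, interval -1.45 to -0.33).

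Markers of other cells moved with the groups or with single arrays. A positive difference was found for 57.9% of all genes, and the GFP-positive arrays had the higher median signals. The counts of positive markers here and below stand beside that share. B cells and plasma cells also express Ikzf1 and Ikzf3. The 9 B cell markers summed to 407 and 486 on the GFP-positive arrays, against 258 and 349 on the GFP-negative arrays, with 2 of 9 above the dim limit on every array. All 7 tested had positive differences, with Ms4a1 and Ebf1 at 0.47 (-0.15 to 1.10) and 0.95 (0.02 to 1.88). The median of the B cell markers, 0.12, turned negative under quantile (-0.05), cyclic loess (-0.06) and median scaling (-0.08). The 6 plasma cell markers summed to 7203 and 4909 on the GFP-positive arrays, against 4285 and 5136 on the GFP-negative arrays, with 4 of 6 above the limit on every array, and most of that was Jchain. All 5 tested had positive differences, with Jchain and Xbp1 at 0.28 (-0.41 to 0.98) and 0.93 (-0.02 to 1.88). The other Xbp1 probe sets, all above the dim limit, gave 0.23, 0.14 and 0.15. The median of the plasma cell markers was 0.62, and 0.35 under median scaling.

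The 12 myeloid markers summed to 899 and 1821 on the GFP-positive arrays, against 476 and 903 on the GFP-negative arrays, so GFP-positive replicate 2 was highest, and 4 of 12 were above the limit on every array. On that array the Ikzf3 probe set 1453378_at was highest too. All 10 tested myeloid markers had positive differences, with a median of 0.57 that was 0.33 under median scaling. Csf1r had 35.5 and 164 in GFP-positive cells, against 7.73 and 10.7 in GFP-negative cells, which is under the dim limit. Its difference was 1.93 (0.49 to 3.38), and its other probe sets gave 0.09 and 0.37. Cd74 and H2-Ab1 had overlapping groups, with differences of 1.14 (-0.23 to 2.52) and 0.78 (-0.50 to 2.06). The 12 epithelial markers summed to 2954 and 616 on the GFP-positive arrays, against 749 and 838 on the GFP-negative arrays, with 7 of 12 above the limit on every array and GFP-positive replicate 1 highest. Ikzf4 was also highest on that array by 1438274_at, but by 1457342_at it was highest on GFP-positive replicate 2. Of 11 tested epithelial markers, 9 had positive differences. Their median of 0.42 was 0.18 under median scaling and -0.46 without GFP-positive replicate 1. Epcam and Krt18, the 2 with non-overlapping groups, were higher on both GFP-positive arrays. Their differences were 1.64 (0.88 to 2.39) and 1.31 (0.14 to 2.49). The 7 CD8 T cell and NK cell markers summed to 353 and 445 in GFP-positive cells, against 530 and 631 in GFP-negative cells, with 3 of 7 above the limit on every array. Of the 5 tested, 2 had positive and 3 negative differences, with a median of -0.62. Eomes and Klrd1 were lower on both GFP-positive arrays, with differences of -1.95 (-3.50 to -0.40) and -0.62 (-1.46 to 0.23). The GFP-positive mean of Eomes, 16.1, is under the dim limit. Cd8a went the other way, at 52.1 and 60.2 in GFP-positive cells, against 32.5 and 42.5 in GFP-negative cells. The 4 innate lymphoid markers on the arrays, of which T cells also express Id2 and Il7r, summed to 8701 and 7956 in GFP-positive cells, against 6718 and 6974 in GFP-negative cells, with 3 of 4 above the limit. Of these 4, 3 had positive differences and 1 a negative one. Kit had 98.1 and 270 in GFP-positive cells, against 64.4 and 26.5 in GFP-negative cells. Its difference was 1.63 (0.32 to 2.94), with Id2 at 0.34 and Il7r at 0.18. No marker was listed at 0 on any array.

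Without GFP-positive replicate 1 the differences of Foxp3 and Ikzf4 were 2.43 and 1.15, and leaving out GFP-positive replicate 2 instead gave 2.34 and 1.65. The part of these other cells in the members' differences was not tested.

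**Figure D5:**
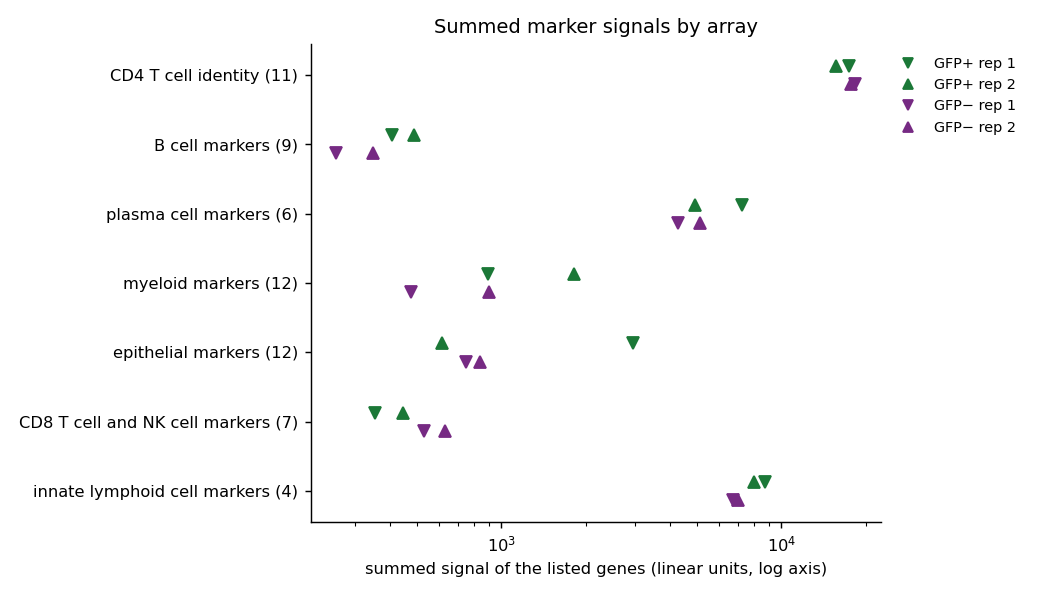
Summed signal of each marker list on each array, in linear units on a log axis, with the number of genes in brackets, GFP-positive arrays in green above and GFP-negative arrays in purple below on each line. CD4 T cell genes lie between 15687 and 18261 on the 4 arrays, and epithelial markers reach 2954 on GFP-positive replicate 1.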

How the data were processed

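Total RNA was extracted with Trizol from the sorted cells, labelled with biotin and hybridised to Affymetrix arrays, per the labels' protocols. Each deposited value is the intensity of a probe set on a linear scale, and the deposited arrays share 1 trimmed mean. The software and the summary method: not given in the sources used here. Groups and replicate numbers came from the sample titles. The series text once writes the GFP-negative cells as lacking CD4, against its title and all sample labels, which were followed.

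Of 45101 probe sets, 64 of them controls that were not used, 34945 had 1 gene symbol in the platform annotation, 932 had several and 9211 had none. Each gene took its one-symbol probe set of highest mean signal over the 4 arrays. Genes at or under the 40th percentile of the mean signal of non-control probe sets, 29.53, were left out (5952 of 18193). The log2(signal + 16) values of the rest were tested two-sided with limma 3.58.1 in R 4.3.3 (lmFit and eBayes without trend, 2 residual and 3.56 prior degrees of freedom), with group as the only term. Intervals are 95% intervals of that fit. The number of arrays limits the precision. The fit was tested on simulated data. Members and gene lists were chosen with earlier results of these data known. Named list genes were those called, then up to 4 per direction of at least 2-fold with non-overlapping groups, else the 2 brightest. Throughout, 2-fold means a difference of 1 on the log2(signal + 16) scale. The most similar profiles were the 5 nearest for Foxp3 and the 3 nearest for each other member. Genes named outside this rule (Izumo1r, Tnfrsf18, Tnf, Zap70, Cd4, Cd8a, Lat) were chosen after their values were seen.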

Additional observations from a re-analysis of the deposited data

Results flagged for a closer look

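Of 51 probe sets, 8 differed in opposite directions within replicate 1 and replicate 2, which among all tested genes happened for 35.6%. The 51 were the probe sets of the members and those used for genes named by the list rule above. That rule first took genes with non-overlapping groups, and such groups always differ in the same direction within both numbers. The 8 of 51 therefore cannot be read against the 35.6%. Each number holds 1 array per group, so none of these contrasts was tested. The gap between the difference within replicate 2 and that within replicate 1 was 1.20 for Ikzf3 on 1453378_at (1.14 and -0.06), 0.86 for Ikzf5 on 1436554_at (0.48 and -0.38) and -1.05 for the dim Ikzf1 probe set 1421303_at (-0.83 and 0.23). Among genes named by the list rule the gap was -0.40 for Bcl6, -0.17 for Cul4b, 0.66 for Foxp4, -0.81 for Jchain and -0.45 for Prf1. Tnf, Zap70 and Cd4, named outside the rule, were not screened and are not in the 8. They also differed in opposite directions within replicates 1 and 2 (0.07 and -0.04, 0.17 and -0.21, 0.10 and -0.13). The probe sets used for the 6 members are not among the 8, which follows from their non-overlapping groups.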

How the results depend on the processing

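In 17 alternatives (other pseudocounts, normalizations, filters, probe set rules and fits, and leaving out each array), 101 of 102 member differences had the same sign as reported. The exception was Ikzf3, at -0.13 under median scaling. The count of genes called, 0 here, was 171 with a pseudocount of 64, 43 with the filter at the 60th percentile, 6 with the mean of probe sets, 243 with trend and robust variance, 1330 when the replicate block was added to those, and 4 with probe set and filter chosen by mean log2 value, an alternative chosen after seeing the data.

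Member differences passed the threshold in 13 cases. Foxp3 passed with a pseudocount of 64 (1.91), and at 2.38 with the stricter filter (limma adjusted p = 0.0155), with the mean of probe sets (0.0354), with trend and robust variance (4.4e-04), and with the replicate block added to it. Over all alternatives its adjusted p reached 0.327. Ikzf4 passed with a pseudocount of 64 (1.17), and at 1.40 with trend and robust variance with and without the replicate block. In those last fits Ikzf1 (-0.77) and Ikzf2 (0.65) passed as well, and Ikzf5 (0.64) passed with the block only. The plain replicate block called 0 genes and left Foxp3 at an adjusted p of 0.102, and it changed no call of a member. The labels do not say what a replicate number marks, and deviations of same-numbered arrays correlated at 0.197. The numbers also split the arrays by the sex-linked genes Xist and Eif2s3y, so leaving out 1 array unbalances these genes between the groups.

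Leaving out 1 array gave differences of 2.34 to 2.43 for Foxp3, -0.80 to -0.74 for Ikzf1, 0.56 to 0.75 for Ikzf2, 0.14 to 0.24 for Ikzf3, 1.15 to 1.65 for Ikzf4 and 0.44 to 0.85 for Ikzf5, with 0 genes called by limma each time and 1216 to 1452 at an unadjusted p under 0.05. Genes of at least 2-fold with non-overlapping groups numbered 468 higher and 166 lower, which became 297 and 210 with quantile normalization, 285 and 211 with cyclic loess, and 194 and 416 with median scaling. With a pseudocount of 1 they were 954 and 256, and with 64 they were 107 and 77. Without 1 array they ran from 571 to 732 higher and from 210 to 317 lower.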

Other observations

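The spread between arrays of a group differed among the members. A larger residual SD on the log2 scale than that of Ikzf1 was found for 98.2% of tested genes, than that of Foxp3 for 94.7%, than that of Ikzf3 for 93.3% and than that of Ikzf2 for 85.5%, against 52.4% for Ikzf5 and 46.0% for Ikzf4. Of the 14 probe sets, 12 were above the dim limit, and the 2 below it belonged to Ikzf1 and Ikzf4.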
